A study of Ambystoma mexicanum with 2 samples.

Results

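The let-7 microRNAs of the Mexican axolotl (Ambystoma mexicanum) were compared with one another in regenerating and uninjured tail. The members were the mirBase entries whose family label in the deposited count table was let-7, let-7a, let-7b, let-7c, let-7d, let-7e, let-7f, let-7g, let-7i or let-7j. These were 297 of the 9277 listed entries of known microRNAs and 10 of their 4563 labels. The rule of the choice used names only and no read count, but it was set with earlier results of these data known. The series holds 2 small RNA libraries, 1 per condition. The blastema library was made from tail tissue 3 days post injury and the control library from tail tissue that had not been injured or regenerated. Each library was a pool, and 20 mature animals were used. No strain, age or sex was used here.

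The let-7 family takes its name from a nematode gene that controls the timing of larval development, and it is one of the most conserved microRNA families of animals. A let-7 precursor is cut by Drosha and Dicer, the arm on its 5′ side becomes the mature microRNA, and the arm on its 3′ side is mostly degraded. The protein LIN28 blocks this maturation in undifferentiated cells, and let-7 in turn represses mRNAs of growth and stem cell genes such as LIN28, HMGA2, MYC and RAS. The paralogs share their seed, the bases 2 to 8 that pair with target mRNAs, and differ from each other at few positions outside it. The mature let-7a of vertebrates and the let-7 of nematodes have the same sequence.

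The mature sequences of the mirBase entries were not used here, but the sequences that did not map to mirBase show the family seed in axolotl reads. Of the 59811 unmapped sequences, 1699 (2.84%) contained the seed as DNA, GAGGTAG, searched on the sequenced strand only. They held 60328 blastema reads and 57452 control reads, or 2.94% and 4.86% of the unmapped reads. Their share of all reads of the library was in contrast higher in the blastema, with a log2 ratio of blastema over control of 0.41. The authors grouped the unmapped sequences into families and listed partial homologies to mirBase for each, and in 267 families at least 1 of the 10 labels was among them. For 5 of the labels, the most abundant family that lists the label first opens with the seed. Its most common sequence is printed 5′ to 3′ with the seed in capitals, to show the seed in the reads and the bases after it, in which these families differ.
let-7b, miR-pn408: GAGGTAGtagtttgtgtagtta
let-7g, miR-pn2433: GAGGTAGtagtttgtacagtta
let-7i, miR-pn1240: GAGGTAGtagtttgtgctgttta
let-7a, miR-pn2430: GAGGTAGaaggatgtatagat
let-7, miR-pn4140: GAGGTAGaaaattgtatagat
All 5 begin at the seed, so the base that comes before it in the mature microRNA is not in these sequences. The families of miR-pn408, miR-pn2433 and miR-pn1240 had 22732, 5558 and 2108 blastema reads, against 13694, 2816 and 1000 control reads, and a higher share in the blastema library. The families of miR-pn2430 and miR-pn4140 had 194 and 16 blastema reads, against 3110 and 404 control reads, and a lower share. For let-7c, let-7d, let-7e, let-7f and let-7j, the most common sequence of the most abundant family does not contain the seed. For let-7c, let-7e and let-7f these families had 246, 18 and 32 blastema reads, against 3654, 2122 and 2188 control reads, and a lower share. For let-7d and let-7j they had 302 and 474, against 104 and 72, and a higher share. All counts of unmapped sequences are even numbers, while 138 blastema counts and 154 control counts of the let-7 entries are odd. Whether the unmapped counts hold a read more than once was not tested. The library totals below include them as deposited, and the total of known reads, given among the alternatives, leaves them out.

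The deposited counts of known and unmapped sequences sum to 9952885 reads for the blastema library and 12613931 reads for the control library. Shares of these totals are used below, and each log2 ratio is blastema over control with 0.5 read added to each count. Neither condition has a replicate, so no test was made. The 95% intervals cover only the error of counting, and reads copied by PCR are not separate molecules. Of the labels taken as tissue markers, the muscle microRNAs held 14.3% of the blastema reads and 67.4% of the control reads. The epidermal labels held 2.09% and 0.200%, the neural labels 0.265% and 0.0884%, and the labels of blood cells 0.251% and 0.0258%. Fewer cells of a type and less RNA per cell cannot be told apart in such pools, and the part of tissue composition in any let-7 result was not tested. A change in the large muscle share moves the share of every other microRNA, so that ratios between paralogs, in which the library total cancels, carry the comparison.

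As a family, the 10 labels held 25.3% of the blastema reads (95% Wilson interval 25.2 to 25.3) and 13.9% of the control reads (13.9 to 14.0). This is a log2 ratio of 0.86 (0.85 to 0.86), a 1.81-fold higher share in the blastema library. Most other microRNAs had a larger ratio. The median log2 ratio of the 10 labels was 0.89, against a median of 2.08 over the 197 known labels with at least 1000 reads, and 9 of the 10 labels were below that median. In the blastema library 5 of the 10 labels reached a share 2-fold or more above the control, as 84.3% of all known labels with at least 10 reads did. No let-7 label was at least 2-fold lower, as 1.84% of the known labels were. The direction for the whole family depends on the total: with the muscle labels left out of it the log2 ratio was -0.54.

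The paralogs differed greatly in abundance. let-7f, which mammals transcribe in a cluster together with let-7a and let-7d, led the 10 labels in both libraries. It had 1021519 blastema reads and 562472 control reads. It ranked 1 among all known labels in the blastema and 5 in the control. let-7a followed with 434169 and 386281 reads, and the label let-7 without a letter, all of whose 40 entries are from invertebrates, with 423854 and 358964. These 3 labels together held 74.7% of the let-7 reads in the blastema and 74.3% in the control. let-7 and let-7a together held 42.4% of them in the control, more than the 32.0% of let-7f. In the blastema they held 34.1%, less than the 40.6% of let-7f. let-7b had 164086 blastema reads and 139148 control reads. let-7c, which mammals transcribe with miR-99a and miR-125b, had 138792 and 190054, and was the only label with a lower library share in the blastema. The remaining labels were rarer than these in the control, while let-7i exceeded let-7c in the blastema. let-7i had 159766 blastema reads and 30544 control reads, let-7j had 63866 and 31285, and let-7g had 51382 and 22634. let-7e and let-7d were the least abundant, with 35919 and 21649 blastema reads against 17900 and 20228 control reads.

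**Figure D1:**
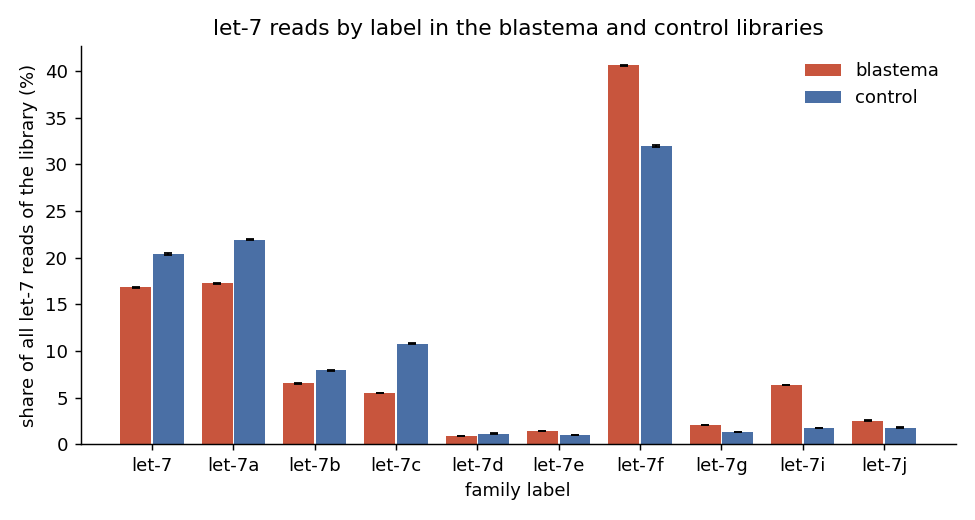
Share of all let-7 reads held by each of the 10 family labels (percent, vertical axis) in the blastema library (left bar) and the control library (right bar). Error bars are Wilson 95% intervals for counting error, 1 library per condition. let-7f held 40.6% in the blastema and 32.0% in the control, and let-7i held 6.35% and 1.74%.

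Measured against the sum of let-7 reads of the same library, 5 labels took a larger part in the blastema and 5 a smaller part. let-7i, which mammals transcribe on its own outside the let-7 clusters, differed most. It made up 6.35% of the let-7 reads in the blastema (6.32 to 6.38) and 1.74% in the control (1.72 to 1.76), a 3.66-fold larger part and a log2 ratio of 1.87 (1.85 to 1.89). let-7g, likewise transcribed outside the clusters, held 2.04% in the blastema and 1.29% in the control, a log2 ratio of 0.67 (0.64 to 0.69). let-7j gave 0.51 and let-7e 0.49. The value of let-7j is of its sum, and of its 10 entries 4 took a larger part in the blastema and 6 a smaller part. let-7f was the last of the higher labels, with 40.6% of the let-7 reads in the blastema, 32.0% in the control and a log2 ratio of 0.35.

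At the other end stood let-7c, which held 5.52% of the let-7 reads in the blastema (5.49 to 5.55) and 10.8% in the control (10.76 to 10.85). Its log2 ratio of -0.97 (-0.98 to -0.96) corresponds to 0.511 times the control part. The labels let-7d, let-7a, let-7b and let-7 gave -0.42, -0.35, -0.28 and -0.28. These are values of label sums. In the label let-7, 22 of 40 entries took a larger part in the blastema, and in let-7d 18 of 29. In let-7a 7 of 40 did, and in let-7b 4 of 33. Without the largest entries of all labels, let-7 and let-7d gave -0.18 and -0.58. let-7 and let-7a, whose mature sequences are the same in nematodes and vertebrates, together held 34.1% of the let-7 reads in the blastema and 42.4% in the control.

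**Figure D2:**
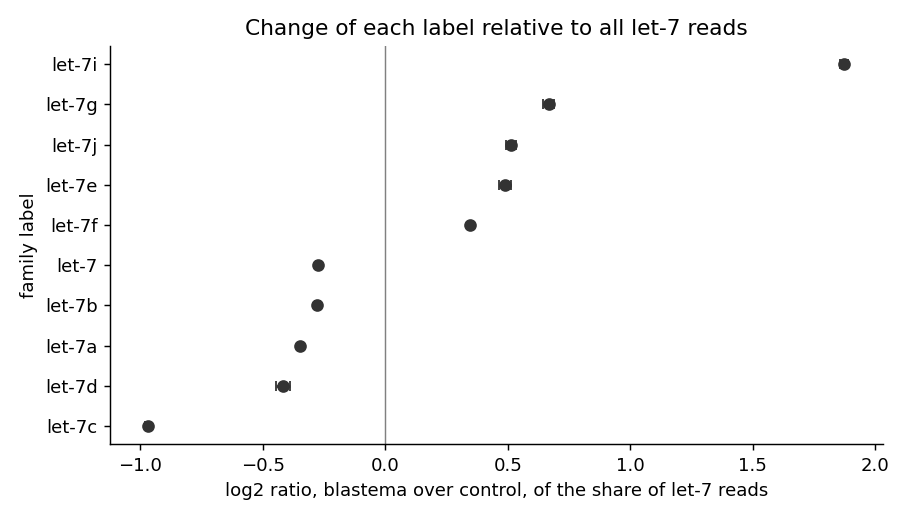
Log2 ratio, blastema over control, of the share of let-7 reads held by each label (horizontal axis), with 95% intervals from counting error. let-7i lies at 1.87 and let-7c at -0.97, the ends of a spread of 2.84.

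The difference between 2 labels does not depend on how the libraries are scaled, and all 45 pairs were compared. The largest difference was 2.84 on the log2 scale (2.82 to 2.86), between let-7i and let-7c, so that the ratio of let-7i reads to let-7c reads was 7.16 times as large in the blastema as in the control. Of the 45 pairs, 15 differed at least 2-fold, and all 9 pairs that include let-7i were among them. The other 6 paired let-7g with let-7c, let-7d or let-7a, and let-7j, let-7e or let-7f with let-7c. Among all pairs of known labels with at least 10 reads, 62.3% differed at least 2-fold, and with at least 1000 reads 58.0% did, both larger shares than the 15 of 45 among the let-7 labels. The abundant let-7f exceeded let-7a by 0.69 (0.68 to 0.70). For 43 pairs the interval of the difference did not include 0. These include let-7 and let-7a, at 0.07 (0.06 to 0.08), whose mature sequences are the same in nematodes and vertebrates. An interval without 0 is therefore no sign of distinct axolotl paralogs. In the order of the ratios, the neighbours that could not be separated beyond counting error were let-7j and let-7e, with a difference of 0.02 (-0.01 to 0.06), and let-7 and let-7b, with 0.0019 (-0.010 to 0.014). These ties are of label sums, and the largest entry of each label bears on them. Without these entries the log2 ratio of library share was 0.70 for let-7 and 0.26 for let-7b, and with them alone it was 0.50 for let-7 and 1.18 for let-7b. For let-7j and let-7e it was 1.18 and 1.20 without them, and 1.48 and 1.92 with them alone.

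**Figure D3:**
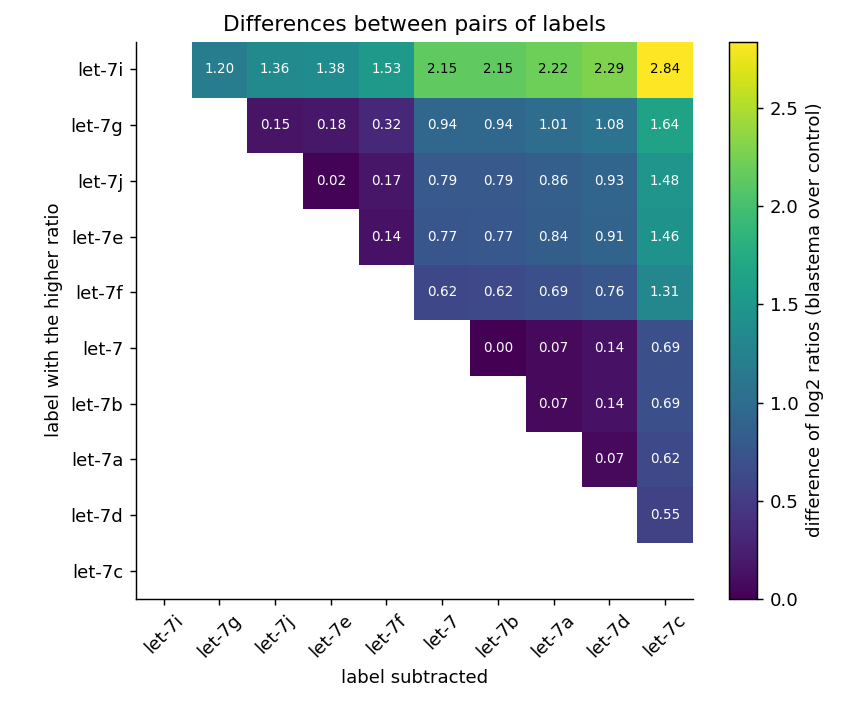
Difference of the log2 ratios (blastema over control) between the label of the row and the label of the column, for all 45 pairs, with rows and columns ordered by the ratio. The row of let-7i runs from 1.20 against let-7g to 2.84 against let-7c.

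The labels are sums over entries of many species, and the reads within a label were unevenly divided. The entry with the most reads of each label held between them 28.4% of the let-7 reads in the blastema and 29.7% in the control. In the label let-7 this was the nematode entry prd-let-7-5p, with 239627 blastema reads and 215423 control reads, or 56.5% and 60.0% of the label. The entries crm-let-7 and cbn-let-7, also of nematodes, came next with 19050 and 13701 blastema reads against 17871 and 12838 control reads. Of the label let-7f, the bat entry efu-let-7f held 245240 blastema reads and 124202 control reads. Of let-7c, efu-let-7c held 46973 and 73901. The frog entry xtr-let-7b held 68544 blastema reads and 38288 control reads, which are 41.8% and 27.5% of let-7b. let-7a had no such entry, and its 3 largest, eca-let-7a, tgu-let-7a-5p and oha-let-7a-5p, had 33197, 32752 and 32710 blastema reads against 31401, 30637 and 30495 control reads.

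**Figure D4:**
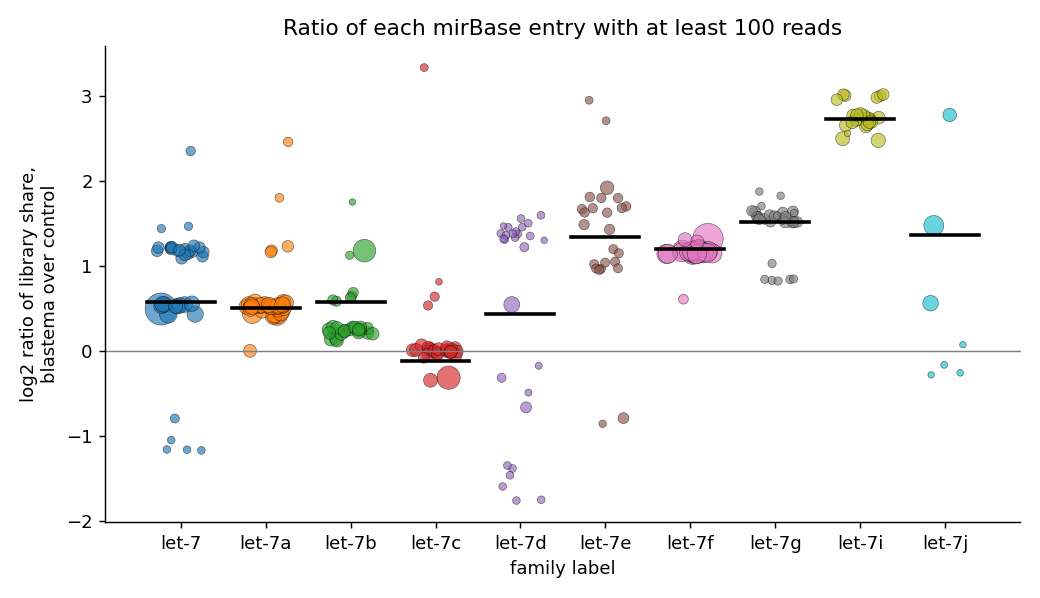
Log2 ratio of library share, blastema over control, of each let-7 entry with at least 100 reads over both libraries, by label. The area of a point grows with its reads, the horizontal position within a label is random, and the black line is the ratio of the summed label. Entries of let-7i lie between 2.48 and 3.02, while those of let-7d run from -1.76 to 1.60.

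Entries agreed most closely within let-7i, let-7f and let-7g. All entries were counted from the same 2 libraries, and many within a label had nearly the same counts. For example, 15 entries of let-7i had 6499 to 7264 blastema reads and 1201 to 1409 control reads each. In any label, entries are therefore not replicates, and the number that agree does not measure how repeatable a ratio is. All 26 entries of let-7i had a higher share in the blastema, and over its 25 entries with at least 100 reads the log2 ratio ran from 2.48 to 3.02 with a median of 2.74. The 26 such entries of let-7f ran from 0.61 to 1.32 with a median of 1.17, and the 28 of let-7g from 0.82 to 1.88 with a median of 1.57. let-7a had a higher share in the blastema for all 40 entries, and the median of the 36 with at least 100 reads was 0.53. In any label, a higher share was the usual direction under this total. Of the known labels with at least 10 reads, 84.3% were at least 2-fold higher. The direction depends on the total, and let-7a gave -0.88 with the muscle labels left out of it. For let-7c the 28 entries with at least 100 reads had a median of 0.01, and 17 of them were above 0 and 11 below. Without its largest entry the label let-7c had a log2 ratio of 0.0027 (-0.010 to 0.015), in place of -0.11 (-0.12 to -0.10).

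let-7b depended on its frog entry, which gave a log2 ratio of 1.18, while the median of its 29 entries with at least 100 reads was 0.25. Without xtr-let-7b the label gave 0.26 (0.25 to 0.28), in place of 0.58.

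let-7d and let-7e held entries of opposite direction, as did let-7c, let-7j and the label let-7. Of the 37 entries of the label let-7 with at least 100 reads, 32 were above 0 and 5 below. They ran from -1.17 to 2.35 with a median of 1.13, against 0.58 for the summed label. For let-7d the median of the 28 such entries was 1.32. The 6 entries of let-7d from ray-finned fish had 89 to 127 blastema reads and 383 to 420 control reads each, and all 6 had a lower share in the blastema, with a log2 ratio of -1.54 (-1.66 to -1.41) for their sum. The 14 entries from mammals other than the bat all had a higher share, and their sum gave 1.42 (1.35 to 1.49). These subsets were chosen after their values were seen. The bat entry efu-let-7d had 12467 blastema reads and 10804 control reads, or 57.6% and 53.4% of the label, and a log2 ratio of 0.55, so that the value of the label, 0.44, lay near that of this entry. The chicken entry gga-let-7d, with 1377 blastema reads and 2760 control reads, gave -0.66. In let-7e, 23 of 25 entries had a higher share in the blastema. The others were the frog entry xtr-let-7e, with 1215 blastema reads and 2659 control reads, and cin-let-7e of a sea squirt, with 132 and 303. The largest entry, efu-let-7e, had 8710 and 2914 and gave 1.92.

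let-7j, a label of 10 entries, was a mixture. Its mouse entry mmu-let-7j, with 42847 blastema reads and 19490 control reads, gave 1.48. The chicken entry gga-let-7j-5p, with 11321 and 9705, gave 0.56, and the salmon entry ssa-let-7j-5p, with 9421 and 1740, gave 2.78. The other 7 entries had at most 115 reads in either library. Over the 7 entries of let-7j with at least 100 reads in both libraries together, the median log2 ratio was 0.08. Of these, 4 were above 0 and 3 below.

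The entries of the frog, the only amphibian among the let-7 entries, followed the order of the labels with the exceptions of let-7b and let-7e. xtr-let-7i had 4442 blastema reads and 694 control reads, a log2 ratio of 3.02. xtr-let-7f had 33978 and 19097 (1.17), xtr-let-7a had 12784 and 12033 (0.43) and xtr-let-7c had 3901 and 4891 (0.02). xtr-let-7g had 25 blastema reads and 7 control reads only.

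Many entries had nearly the same reads as others in both libraries. The 269 entries with at least 100 reads were grouped so that, within a group, no 2 entries differed by more than 0.25 on the log2 scale in either library. This gave 61 groups, of which 16 had at least 5 entries and left 67 entries outside. The largest group, of 32 entries, had a median of 11265 blastema reads and of 9856.5 control reads per entry. It held 23 entries of let-7a, 7 of the label let-7, efu-let-7d and gga-let-7j-5p, with log2 ratios from 0.48 to 0.58. A group of 25 held 21 entries of let-7c, 3 of let-7b and 1 of let-7a, at -0.05 to 0.14. A group of 22 held entries of let-7f alone, with a median of 34593 blastema reads and 19477 control reads, and log2 ratios from 1.13 to 1.20. A group of 21 held 18 invertebrate entries of the label let-7 with 3 of let-7a, at 1.09 to 1.24. A group of 7 joined 3 fish entries of let-7d to 4 insect entries of the label let-7, with log2 ratios from -1.46 to -1.05. Groups of let-7i (15 and 6 entries), let-7g (14, 5 and 5), let-7e (8 and 7), let-7b (16 and 5) and let-7d (8 and 6) held no other label. The grouping was made after the values were seen. The study's methods do not say how a read that matches several entries was placed. The boundary between labels that differ at few bases is therefore uncertain. Groups that mixed labels held entries of let-7, let-7a, let-7b, let-7c, let-7d and let-7j. Likeness of counts does not show which entries shared reads, so a group of 1 label is no sign of a surer boundary.

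**Figure D5:**
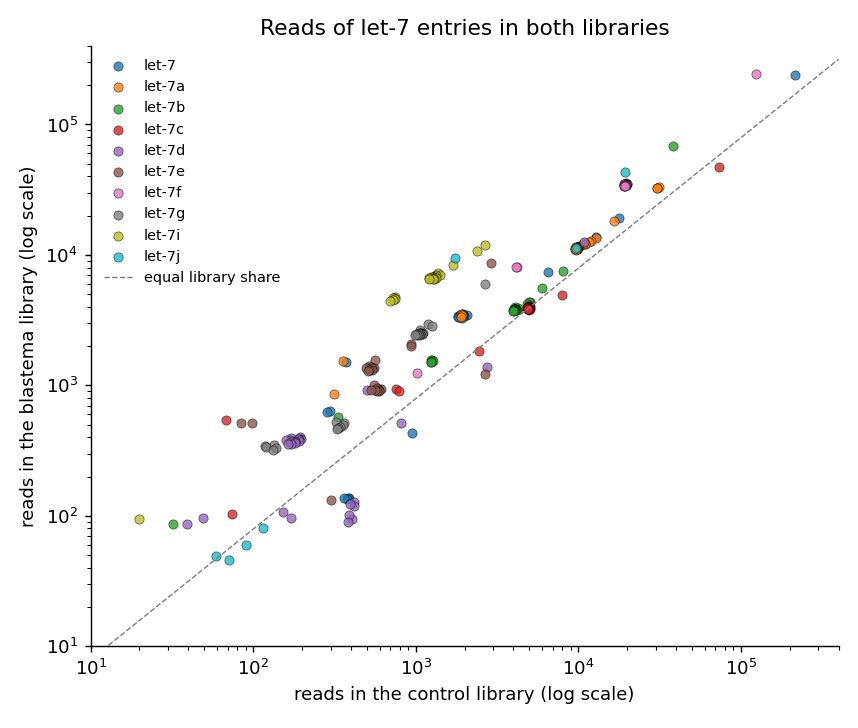
Reads of each let-7 entry with at least 100 reads over both libraries, control library on the horizontal and blastema library on the vertical axis, both on log scales, coloured by label. The dashed line marks an equal share of both libraries. The 22 entries of let-7f near 19477 control reads form a tight group. The entries of let-7i all lie above the line, and 15 and 6 of them form tight groups. Others lie apart, such as bta-let-7i with 2689 control reads and ssc-let-7i with 20. Entries of let-7d lie on both sides of the line.

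Nearly all reads with a named arm were of the 5p arm. Entries named -5p, 122 in number, held 1124649 blastema reads and 814204 control reads, and 166 entries without an arm in their name held 1390181 and 945271. The log2 ratio of library share was 0.81 for the entries named -5p and 0.90 for those without an arm. The label let-7b differed most between them, at 0.25 for the entries named -5p and 0.71 for those without an arm, among which is xtr-let-7b.

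The 3p arm was listed for 3 of the 10 labels, in 9 entries, with 172 blastema reads and 35 control reads. This is 0.0153% of the reads with a named arm in the blastema (0.0132 to 0.0178) and 0.0043% in the control (0.0031 to 0.0060). The 3p reads relative to the 5p reads were thus higher in the blastema, by 1.81 on the log2 scale (1.29 to 2.34). The 5p reads in this ratio include the 7 labels without a 3p entry. With only species and labels that list both arms, the difference was 1.43. For the other known labels summed, the 3p part of reads with a named arm was 74.5% in the blastema and 93.0% in the control. The ratio of 3p to 5p reads differed by -2.19 on the log2 scale. That sum includes the muscle labels, which held 14.3% of all blastema reads and 67.4% of all control reads. It weighs each label by its reads, so it does not compare the arms within a label, and that comparison was not made. Of the let-7 3p reads, 86 in the blastema and 32 in the control belonged to the lamprey entry pma-let-7b-3p. let-7f had 80 blastema reads over 7 entries and 2 control reads, a log2 ratio of 3p over 5p of 4.19 with a wide interval (2.38 to 6.01). Its largest 3p entries, mdo-let-7f-1-3p and ssa-let-7f-3p, had 16 blastema reads each and 0 control reads. A count of 0 in the control allows a share of up to 2.38e-05%. let-7i had 6 blastema reads and 1 control read of its 3p arm, in oha-let-7i-3p, and no difference could be seen at this depth (-0.26, -2.82 to 2.31).

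Of the related labels listed for comparison, 6 had reads and all were rare. let-7k, named in chicken and mouse, had 1044 blastema reads and 594 control reads, a log2 ratio of 1.15 (1.01 to 1.30). let-7h of fish had 113 and 107 (0.42, 0.04 to 0.80). miR-98, a member of the family under another name, had 207 and 118 (1.15, 0.82 to 1.48). miR-202, which resembles let-7 in its seed, had 183 blastema reads and 23 control reads (3.31, 2.69 to 3.93). miR-84, a nematode sister of let-7, had 20 and 2, and miR-4458 had 32 and 0. The ratios of miR-98 and let-7k were thus near that of let-7f (1.20), which lay within both intervals. The interval of miR-98 also covered let-7e (1.35) and let-7j (1.37). The ratio of let-7h was near that of let-7d, but its interval also covered let-7, let-7a and let-7b.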

How the data were processed

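Small RNA of 2 axolotl tail pools, blastema and control, was sequenced on an Illumina Genome Analyzer. The authors trimmed reads with ShortRead, mapped them to mirBase 21 with Bowtie (1.1.2, per the submitters' processing notes) allowing 2 mismatches, and counted them per entry with Rsamtools. The deposited counts are raw reads per mirBase entry, per unmapped sequence and per family of unmapped sequences. The deposited table also holds signal values the authors normalized, their log2 values and a log2 fold change of blastema over control, none of which was used.

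Counts were summed over the entries of each label. Shares have Wilson 95% intervals, and log2 ratios have intervals from Poisson error, with 0.5 read added. Ratios within the family divide by all let-7 reads, and their intervals use binomial in place of Poisson error. Paralogs were compared by the difference of their log2 ratios. No condition was tested, since there is 1 library in each. Labels with at least 10 reads were counted, and 2-fold was the limit. All 10 labels are named, with the 3 largest entries, frog entries and the largest entry of an arm where they bear on a value. Other entries were named after their values were seen. The members and lists were chosen with earlier results of these data known. Alternatives were 4 other totals, other sets of entries, 5 reads added, other minimums and a 1.5-fold limit. In simulated counts the intervals held the true log2 ratio for 96.6% of 3090 labels, and the true ratio within the family in 94.3% of 3000 draws. This bears on the calculation of the intervals only. It says nothing on variation between animals, which 1 library per condition cannot show. TMM factors came from edgeR 4.0.16 in R 4.3.3. All else was computed in Python 3.11.15 with SciPy 1.17.1, NumPy 2.4.6 and pandas 2.3.3, and drawn with Matplotlib 3.10.9.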

Additional observations from a re-analysis of the deposited data

How the results depend on the processing

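The differences between paralogs do not depend on the total, but each library share does. The log2 ratio of the summed family was 1.05 with known reads as the total, 0.24 with the stated sequencing depth, -0.54 without the muscle labels and -1.08 with edgeR's TMM factors. The labels at least 2-fold higher then numbered 5 with known reads, 1 with the depth, 1 without the muscle labels and 0 with TMM, where let-7i (0.79) was the only label still above 0. With known reads let-7c turned to 0.0792. With the depth, let-7, let-7a, let-7b and let-7d turned to -0.0387, -0.11, -0.0406 and -0.18. Without the muscle labels these 4 were -0.81, -0.88, -0.81 and -0.95, and let-7e, let-7f and let-7j turned to -0.0474, -0.19 and -0.0226. With TMM the values were -1.36 for let-7, -1.43 for let-7a, -1.36 for let-7b, -1.50 for let-7d, -0.59 for let-7e, -0.73 for let-7f, -0.41 for let-7g and -0.57 for let-7j.

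With vertebrate entries only, which leaves 9 labels, the family gave 0.92. With the largest entry of each label alone it gave 0.80 and the spread between labels was 2.79, and the ratio of let-7b within the family turned to 0.38. Without the largest entries, an alternative chosen after seeing the data, the family gave 0.88, the spread was 2.75 and the library share of let-7c turned to 0.0027. let-7i was highest and let-7c lowest under each choice of mirBase entries. Unmapped families were not among these choices. Summed by the label listed first, their log2 ratio of library share was highest for let-7j, at 2.72. There let-7g gave 1.24, let-7i 1.06, let-7e 0.53, let-7b 0.38 and let-7d 0.27. let-7f gave -0.43, let-7 -0.69 and let-7a -1.18, and let-7c was again lowest, at -1.38. let-7f was thus below let-7b and let-7d there, the reverse of their order among the mirBase entries. At a 1.5-fold limit 32 pairs differed, in place of 15. The cause of these changes was not tested. No paired analysis was possible because there is 1 library per condition. The pooled libraries give no replicate error, and counting error is small beside the spread between entries of a label.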

Other observations

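In vertebrate genomes some let-7 genes lie in clusters with miR-99, miR-100 and miR-125. The labels of these partners were far less abundant here than the let-7 labels. miR-99a had 1107 blastema reads and 889 control reads, a log2 ratio of library share of 0.66 (0.53 to 0.79), and miR-99b had 943 and 619 (0.95, 0.80 to 1.09). miR-125b had 1719 and 558 (1.96, 1.83 to 2.10), miR-125a had 609 and 346 (1.16, 0.97 to 1.35), and miR-125 without a letter had 1176 and 388 (1.94). miR-100 had 370 and 75 (2.64, 2.28 to 2.99), and the label miR-100e had 1463 and 495 (1.90). let-7c, with -0.11, was thus below both of its partners in mammals, miR-99a and miR-125b. Most known labels with at least 1000 reads were also above let-7c, so this order is not particular to its partners. let-7e was in contrast above miR-99b, and its ratio lay at the upper end of the interval of miR-125a.

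Among other known labels with at least 1000 reads, the 3 whose log2 ratio was nearest to that of the summed let-7 family were miR-375 with 65107 blastema reads and 44636 control reads (0.89), miR-375b with 1126 and 770 (0.89) and miR-365 with 3678 and 2508 (0.89). The likeness is over 2 libraries only.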
